A study of Drosophila melanogaster with 18 samples.

Results

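In the larval fat body of *Drosophila melanogaster*, 345 autosomal positions were read as G in at least 95% of the A and G reads in each of the 3 libraries that expressed 4EHP-ADAR. They were chosen by that measured G share, among 91502 sites listed by the study. Each had at least 20 A and G reads in all 6 editing libraries, a depth that 69874 listed sites and 58789 listed autosomal sites reached. The members lay in 286 of the 6821 autosomal genes with a site of that depth (4.193%). The choice used the G share in 4EHP-ADAR, so that share is described here and not tested. Positions are on the dm6 build, counted from 1.

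4EHP is a homologue of the translation initiation factor eIF4E that binds the mRNA cap. TRIBE finds the RNAs that such a protein binds by fusing it to the catalytic domain of ADAR, an enzyme that deaminates adenosine to inosine, which a sequencer reads as G. An adenosine that is edited in every copy of a transcript and a genomic G in the same position give the same reads. Genomic DNA is not analysed here, so the 2 cannot be told apart at any single member.

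Wild-type 4EHP was fused to ADAR (4EHP-ADAR, *dcg-Gal4/uas-4EHP-adar*, 3 libraries), and set against 4EHP with the W114A change, which impairs the cap-binding pocket (4EHP W114A-ADAR, *dcg-Gal4/uas-4EHPmutant-adar*, 3 libraries). Both transgenes sat on the second chromosome and were expressed under *dcg-Gal4*, a fat body driver, in late larval males whose fat bodies were pooled for each library. A separate RNA-seq experiment compared 3 *4EHP* RNAi libraries (*dcg-Gal4/uas-4EHP* RNAi) with 3 control libraries (*dcg-Gal4/+*). The numbers 1 to 3 of the editing libraries are those of the deposited columns and are not tied to labelled replicates. The labels say nothing more of the genome of either line.

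Depth at the members was slightly below that of the other sites, with a median of 497 reads over the 6 libraries, against 622 at autosomal sites that are not members. The median per library was 102, 102 and 98 reads in 4EHP-ADAR and 83, 53 and 63 reads in 4EHP W114A-ADAR. One library stood apart at the members. 4EHP W114A-ADAR library 1 held the lowest share at 129 of the 222 members where any 4EHP W114A-ADAR library fell under 95%. The test between these libraries and the median pooled share are therefore also given without it. The counts by arm, by state and by lowest library, and the correlations, were not recomputed without it.

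In 4EHP-ADAR, the members were almost free of A. Of 151544 A and G reads, 293 were A, and at 203 members every read was G. In the same positions, 89.348% of 94431 reads were G in 4EHP W114A-ADAR. The pooled 4EHP W114A-ADAR share of a member had a median of 91.67% and ranged between 44.8% and 100%. It was at least 95% at 144 members and exactly 100% at 26. Another 41 members lay between 90% and 95%, 89 between 80% and 90%, 32 between 70% and 80%, 29 between 60% and 70%, and 10 below 60%. No member came near the levels of most listed sites, since the median pooled share was 0% at the 56880 autosomal sites with a mean 4EHP-ADAR share under 5%.

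The difference between the constructs was built into the list, because these libraries were also the ones by which the authors kept or dropped sites. The pooled share was lower in 4EHP W114A-ADAR at 314 members, higher at 31 and equal at 0. Nothing is read from the direction of these counts. A position with G in every read of all 6 libraries is thus missing from the members. The shares above, and the counts by arm and window below, leave such positions out. By library, the share in 4EHP W114A-ADAR was at least 95% at 175, 192 and 219 members in libraries 1, 2 and 3. It was at least 95% in all 3 libraries at 123 members and in none at 65, of which 40 lay on 3L. The remaining members had a mixed state, most often high in libraries 2 and 3 (44), in library 3 alone (40) or in library 1 alone (36).

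**Figure D1:**
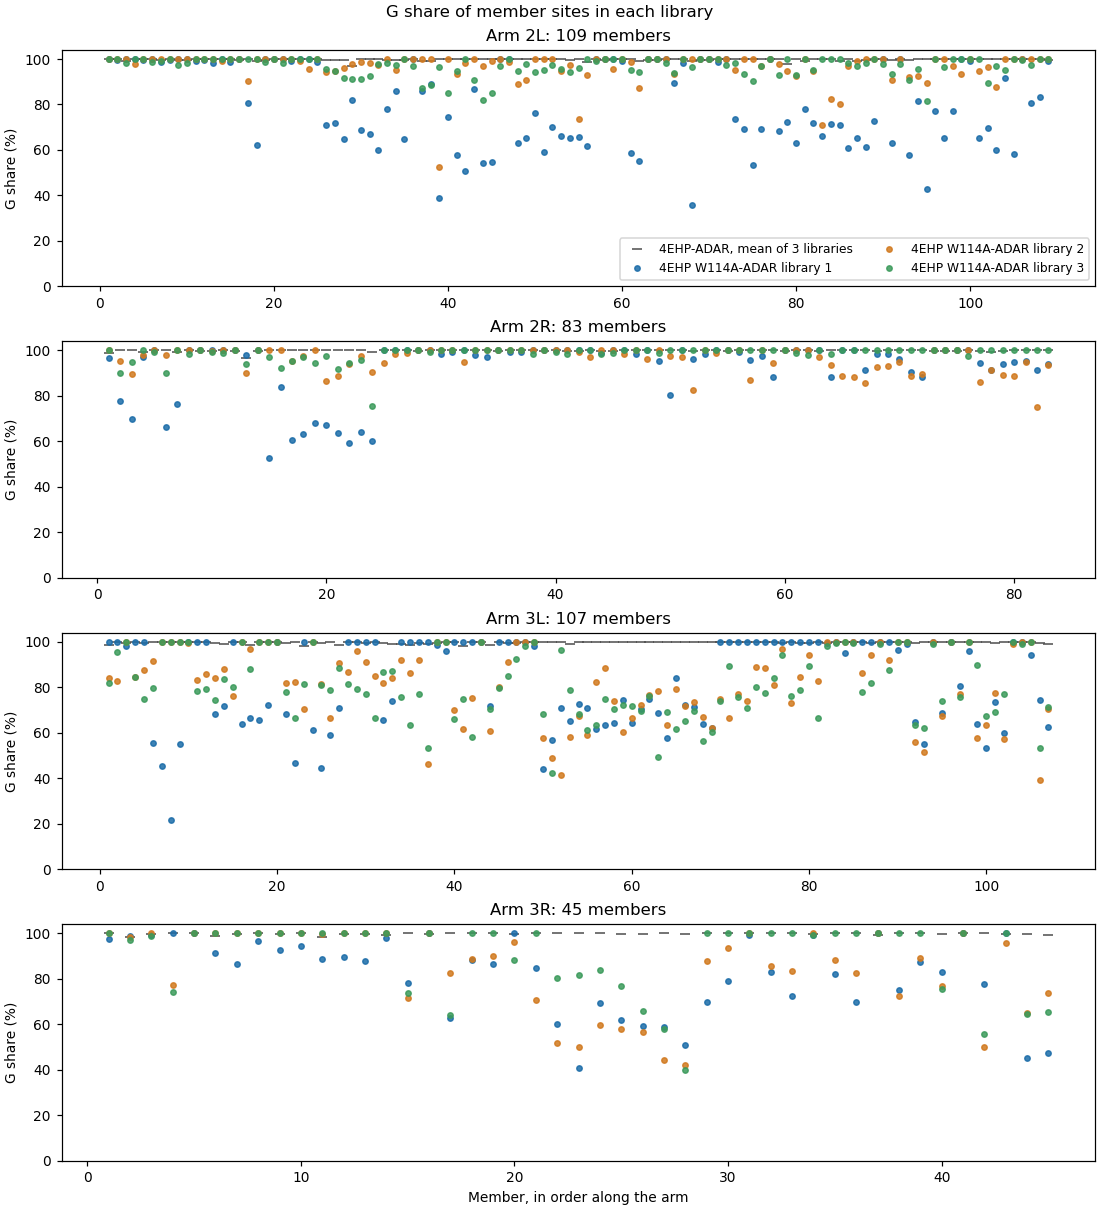
G share (%) of every member on the 4 large autosomal arms, in order along each arm. Grey dashes are the mean of the 3 4EHP-ADAR libraries, and coloured points are the 3 4EHP W114A-ADAR libraries. The grey dashes stay near 100%, while the coloured points fall in blocks, with library 1 lowest over much of 2L and highest over parts of 3L.

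The members were spread unevenly over the arms. Arm 2L held 109 (0.849% of its 12841 sites of sufficient depth), 3L held 107 (0.773% of 13843), 2R held 83 (0.583% of 14228) and 3R held 45 (0.265% of 16953). The fourth chromosome held 1 of 882, in the 3′ UTR of *Hcf*, which encodes a chromatin cofactor. Sites with a mean 4EHP-ADAR share of 50% to 95% were spread more evenly, at between 0.911% and 1.096% of the sites on each of the 4 large arms. Within the arms, members were absent from windows that held many listed sites. None of the 1525, 861, 1661 and 1172 sites in the 4 windows of 2 Mb from 4 to 12 Mb of 3R was a member. The window from 8 to 10 Mb of 2R had 0 members among 1479 sites, and the window from 8 to 10 Mb of 3L had 33 among 1536.

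The level of the 4EHP W114A-ADAR share also differed by arm. The median pooled share was 98.86% on 2R, 92.06% on 3R, 91.16% on 2L and 84.53% on 3L. On 2R, 56 of 83 members (67.47%) had a pooled share of at least 95%, against 23 of 107 (21.5%) on 3L. Of the 71 members below 80%, 42 lay on 3L. The levels on the arms overlapped, since each of the 4 large arms held members at 100% and members below 75%.

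**Figure D2:**
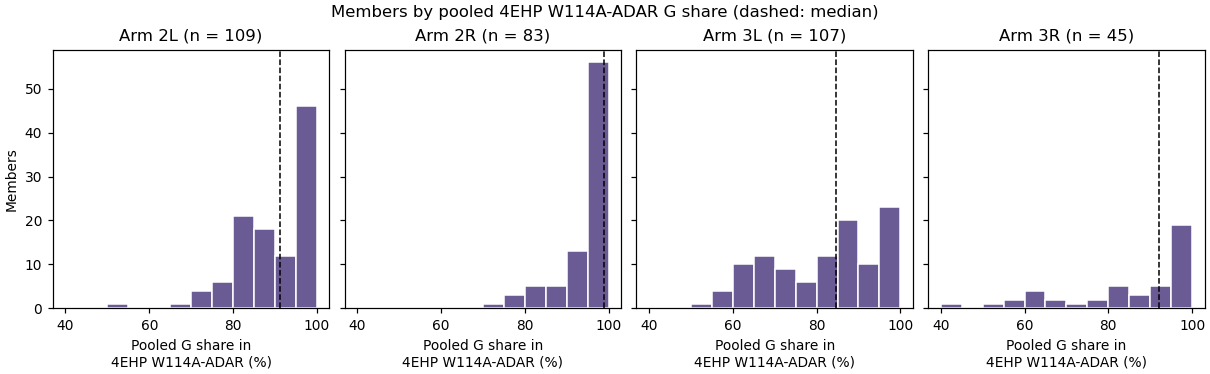
Number of members by pooled G share in 4EHP W114A-ADAR (%, bins of 5 points), with the arm median dashed. On 2R most members stand at 95% or above, and on 3L most stand below, around a median of 84.53%.

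The 3 4EHP W114A-ADAR libraries were then compared with each other at each site. The rule used the depth of these libraries and not their G share, but the authors' listing used their reads. The comparison is therefore not fully independent of the choice of members. The A and G reads differed among the libraries at 105 of the 345 members (30.4%; Fisher-Freeman-Halton exact test, two-sided, Benjamini-Hochberg adjusted p below 0.05 over all 69874 sites). Over all sites tested, 287 (0.411%) were called. A share near 0% or 100% leaves little room for a difference, so sites at intermediate levels are the closer background. The test called 11.5% of the 1121 autosomal sites that are not members and had a pooled share of 10% to 90%, against 53.8% of the 160 members with a pooled share of at most 90%. It called 8.04% of the autosomal sites with a mean 4EHP-ADAR share of 50% to 95%, 9.53% of those with 5% to 50% and 0.00176% of those under 5%. Most of these calls rested on 1 library. Without 4EHP W114A-ADAR library 1, 5 of 350 members (1.43%) were called, against 17 of all 70274 sites (0.0242%), and library 1 was the lowest at 72 of the 105 members called with all libraries. Without library 2, 23.5% of 370 members were called (0.297% of all sites), and without library 3, 20.6% of 364 (0.258% of all sites). Over the 3 libraries, the shares of a called member spanned a median of 30.3 points, and those of a member not called 4.07 points. The test covers counting error within 1 group, and its p-values do not bear on the difference between constructs.

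Which library was low depended on the arm. On 2L, library 1 was the lowest at 63 of the 65 members where any library fell under 95%, with an arm median of 80.77% in library 1, 100% in library 2 and 98.28% in library 3. On 3L, library 1 was the highest at 48 of 87 such members, with medians of 96.55%, 84.24% and 79.15% in libraries 1, 2 and 3. Library 3 was the highest at 27 of 36 such members on 2R, and at 23 of 33 on 3R, and it was never the lowest on 2R. The same library was thus the lowest over most of one arm and the highest over much of another.

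The 5 members with the smallest p in this test show both directions. *ImpL2*, which encodes a secreted inhibitor of insulin signalling, has a member in its 5′ UTR at position 4226825 of 3L, where the share was 100%, 61.5% and 74.7% in 4EHP W114A-ADAR libraries 1, 2 and 3 (354, 169 and 162 reads, adjusted p = 5.58e-35, exact test). At position 1605014 of 3L, in the 3′ UTR of *CG18170*, the share was 55.0%, 100% and 100% in libraries 1, 2 and 3 (adjusted p = 1.37e-32, exact test). Library 1 was thus the only library at full share in *ImpL2* and the only one below it in *CG18170*. *Prosalpha6T*, which encodes a testis form of a proteasome subunit, had 58.4%, 98.8% and 95.3% at position 13232405 of 2L. *CG7970* had 65.6%, 100% and 100% at position 1653998 of 3L, in its 3′ UTR. *alphaCOP*, a subunit of the COPI vesicle coat, had 63.9%, 100% and 100% at position 1641482 of 3L, at the third base of a codon. In 4EHP-ADAR, all of these sites were at 100% in each library except *ImpL2*, with a lowest value of 95.4%, *CG18170*, with 99.3%, and *Prosalpha6T*, with 99.8%.

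Neighbouring members had like shares. Only 12 members stood in runs, defined as 3 or more members each at most 1000 bases from the next. The 4 runs lay in *CG3748* and *MESR3* on 2L and in *CG45186* (annotated as *Svil*) and *Hsp67Ba*, which encodes a small heat shock protein, on 3L. A further 36 pairs lay within that distance, and 261 members had no other member so near. In *MESR3*, the 3 members span 70 bases of the 5′ UTR on the plus strand, and their shares in 4EHP W114A-ADAR libraries 1, 2 and 3 were 66.2%, 71.0% and 100%, then 71.6%, 82.2% and 100%, then 71.2%, 80% and 100%. In *Hsp67Ba*, the share in library 1 was 100% at all 3 members, while library 3 had 78.9%, 89.5% and 66.7%. Exons of an antisense RNA, *asRNA:CR43481*, overlap these *Hsp67Ba* sites.

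Among the pairs, 2 joined different genes on opposite strands, both on 3R. At position 29997629, in the 5′ UTR of *CG15525* on the minus strand, the shares in 4EHP W114A-ADAR libraries 1, 2 and 3 were 75%, 72.4% and 100%, and at position 29998030, in the 5′ UTR of *CG11504* on the plus strand, they were 87.5%, 89.2% and 100%. At position 19028135 in *gatA*, on the minus strand, they were 94.3%, 100% and 100%, and at position 19029112, in the 5′ UTR of *P5cr* on the plus strand, they were 88.8%, 99.6% and 100%. *P5cr* encodes the reductase of the last step of proline synthesis. In both pairs, library 3 was at 100% at each member.

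The difference in pooled 4EHP W114A-ADAR share between successive members grew with their distance. Its median was 1.32 points for the 20 pairs at most 100 bases apart, 2.1 for the next 24 pairs, up to 1000 bases, 3.93 for the 54 pairs up to 10000 bases, 5.53 for the 93 pairs up to 100000 bases and 6.63 for the 149 pairs farther apart. All 43390 pairs of members on different arms had a median of 11.28 points. Sites within 100 bases share reads and a transcript. For the 43 successive pairs at most 10000 bases apart and in different genes, the median difference was 3.46 points. Where both members of such a pair had a library under 95%, the same library was the lowest in 22 of 32 pairs (68.75%), and for near pairs on opposite strands in 13 of 20 (65%). Successive members of 1 arm more than 10000 bases apart, of which 238 of 242 pairs were in different genes, shared the lowest library in 60 of 98 (61.22%), and those more than 100000 bases apart in 29 of 50 (58%). The values for near pairs in different genes thus lay close to those of distant pairs of the same arm, and above the 37.61% of pairs on different arms. Within 100 bases the lowest library was the same in 17 of 18 pairs (94.44%).

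**Figure D3:**
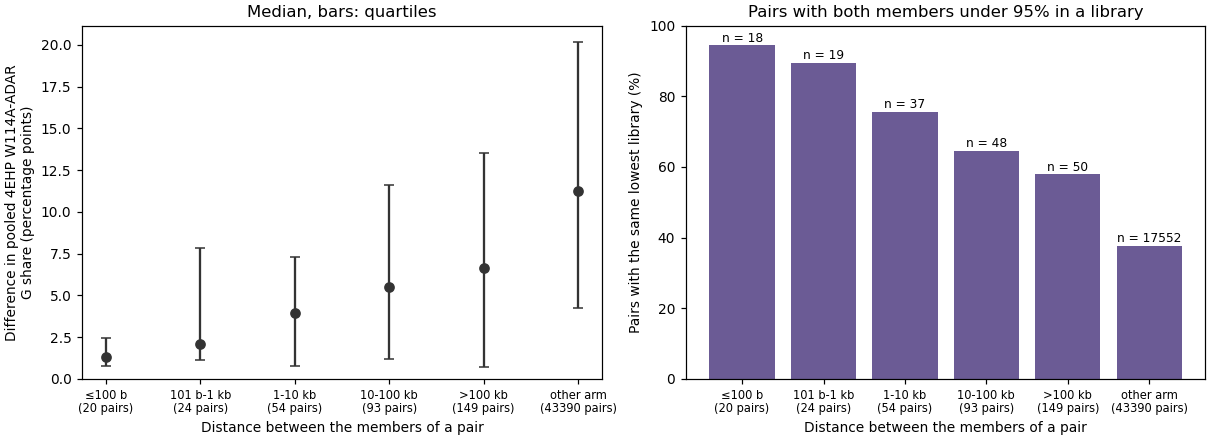
Left, difference in pooled 4EHP W114A-ADAR G share between successive members (percentage points, median with quartiles) by distance, with all pairs on different arms at the right. Right, share of pairs (%) with the same lowest library among pairs in which each member has a library under 95%. The median difference is 1.32 points within 100 bases and 11.28 points between arms.

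The same measure was taken towards other kinds of site, as a description with no test. The deviation of library 1 from the mean of the 3 libraries correlated with that of the nearest member in another gene within 10 kb at r = 0.496 (n = 93 members), with 0.501 for library 2 and 0.327 for library 3. For successive members of an arm more than 100000 bases apart, the r of library 1 was 0.363. Towards other classes, the r of library 1 was 0.06 for the nearest site of 50% to 95% in another gene (n = 51), 0.18 for the nearest site of 5% to 50% (n = 74) and −0.01 for the nearest site under 5% (n = 301). These are descriptions across sites, which share libraries and, in part, reads. The sites under 5% could hardly vary, with an SD of 0.19 points for that deviation. The nearest sites of 50% to 95% and of 5% to 50% also varied less, with SDs of 7.44 and 7.22 points, against 10.96 for the nearest members. They lay farther away as well, at median gaps of 5722 and 5064 bases, against 3968. The lower r towards these classes is therefore not a like comparison.

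Longer stretches were also described. By a rule chosen after the values were seen, members at most 100 kb apart were joined, and 12 stretches of at least 6 members held 108 members. From *Pvr*, which encodes a receptor of the PDGF and VEGF family, to *CG13397* (2L, 8225329 to 8411312), 10 members lay in 7 genes on both strands. The first 3, in *Pvr*, *CG7818* and *CG7806*, were at 98.9% to 100% in library 1, and the next 7 were at 60% to 82.1%. These 7 members stood at 94.3% to 98.9% in library 2 and at 91.1% to 97.7% in library 3. The change of level in library 1 thus fell between the member in *CG7806*, at position 8314655, and the first in *CG7627*, at position 8358113. The exact test called 6 of the 10. Between the first and the last member of the stretch, 229 listed sites of sufficient depth were under 5% in 4EHP-ADAR. Whether the members were isolated cannot be told from the list. It leaves out positions with G in every read of all 6 libraries, and sites with too few reads were not counted.

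The stretch from *CG18170* to *alpha-Spec*, which encodes a spectrin of the membrane skeleton (3L, 1603537 to 1787517), held 17 members in 11 genes. Of these, 4 were under 95% in every library, 2 were at 95% or more in all 3, and 1 in library 2 alone. The other members held 2 interleaved patterns. At 6 members, libraries 2 and 3 were at 95% or more and library 1 was below, as in *alphaCOP* and *CG7970*. At 4 members, library 1 was at 100% and the other two libraries were below 95%. One of these is the *CG18170* site at position 1617001, with 100%, 83.1% and 78.4% in libraries 1, 2 and 3, against 55.0%, 100% and 100% at position 1605014 of the same gene. Between them, at position 1606765, the shares were 100%, 99.4% and 100%. *CG18170* held the most members of any gene, with 6, and all of these sites also lie in exons of *CG33791*.

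The stretch from *bip1* to *Cbl*, which encodes an E3 ubiquitin ligase (3L, 8055203 to 8430135), was under 95% in every library at 15 of its 16 members. The 16, in 15 genes, had pooled shares between 51.5% and 75.8%, with medians of 66.9%, 67.0% and 69.2% in libraries 1, 2 and 3. The libraries differed by the exact test at 1 member, in *Ect4*, with 70.9%, 41.4% and 96.6%. At the *Nmt* member, in the gene of the N-myristoyltransferase, the shares were 72.7%, 67.4% and 68.3% (253, 233 and 161 reads). Both members in *Nelf-E*, which encodes a subunit of the complex that holds paused RNA polymerase II, lay beyond *Cbl* at the third base of a codon. At position 8600392 the shares in 4EHP W114A-ADAR libraries 1, 2 and 3 were 63.9%, 67.1% and 56.5%, and at position 8600422 they were 62.2%, 61.9% and 60.6%. These levels lie within the range of the stretch before it. The *rhea* members at positions 8568116 and 8568161, between *Cbl* and *Nelf-E*, had pooled shares of 70.4% and 71.6%.

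From *CG5068* to *Argk*, which encodes arginine kinase (3L, 8986864 to 9062352), library 1 was at 100% at all 7 members in 4 genes, and libraries 2 and 3 were between 66.7% and 89.2%. One of these genes is *smg*, which encodes the RNA-binding repressor Smaug. Its member had 100%, 66.7% and 89.2%. From *CG7609* to *CG31038* (3R, 29743573 to 29878417), library 3 was at 99.2% to 100% at all 6 members, and libraries 1 and 2 were below 95% at 4 of them, among them the member in *IntS11*, the endonuclease of the Integrator complex, with 72.3%, 83.6% and 100%. The same library was therefore at full share through one stretch and low through another.

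In 2 of the 4 other stretches of 2L, library 1 was low at every member. From *CG10413* to *CG10376* (2L, 18603887 to 18702871), library 1 was the lowest at all 10 members in 5 genes, with 61.0% to 78%, and the median share was 95.7% in library 2 and 99.2% in library 3. From *CG16854* to *Nup160*, which encodes a nuclear pore subunit (2L, 11088403 to 11124506), library 1 was at 59.0% to 70% at all 6 members. In the remaining pair, from *da* to *Lrr47* and from *CG31678* to *CG9328*, library 1 was at 95% or more at 2 of 7 members each. On 2R outside the stretches, library 1 was far lower at some members, as in *ClC-b*, with 59.31%, 94.07% and 94.64% in libraries 1, 2 and 3. In *nemy* the shares were 64%, 97.73% and 95.98%. Of the 36 members of 2R with a library under 95%, library 1 was the lowest at 18 and library 2 at 18. The exact test called 12 of the 83 members of 2R. Within the stretches of 2R the spread was smaller. From *RabX1*, a Rab family GTPase gene, to *egl*, which encodes an RNA cargo adaptor of dynein (2R, 23522125 to 23737609), library 3 was at 98.6% to 100% at all 8 members, library 2 at 85.5% to 97.1% and library 1 at 88.4% to 100%, and the exact test called 0 of the 8.

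**Figure D4:**
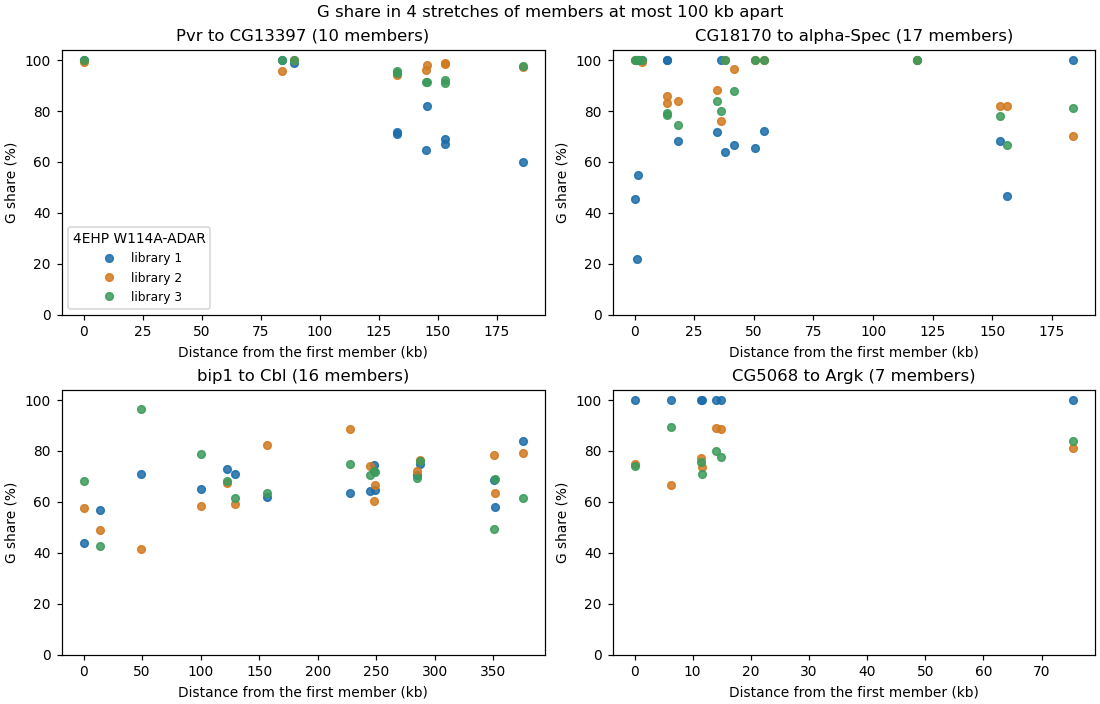
G share (%) in the 3 4EHP W114A-ADAR libraries at the members of 4 stretches, by distance from the first member (kb). Library 1 drops from *CG7627* on in the *Pvr* stretch and is at 100% throughout the *CG5068* stretch, and the library medians lie between 66.9% and 69.2% in the *bip1* stretch.

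The lowest pooled share was 44.8% (95% Wilson interval 38.8% to 51.0%, counting error only), at position 27941476 of 3R in *CG5514* (annotated as *BOD1*), with 51.0%, 42.1% and 39.7% in 4EHP W114A-ADAR libraries 1, 2 and 3. In 4EHP-ADAR, 515 of 517 reads were G in this position. The next were *CG42590* with 51.5%, *CG13116* with 51.9% and *Clbn*, a factor of ribosome-associated quality control, with 53.9%. Among the other members below 60%, *cyc*, which encodes a clock transcription factor, had 56.5%, *bip1* 56.8%, *CG1815* 57.1%, *CG5808* 57.6% and *CG18170* 58.3%. The pooled value could hide large differences. At *CG13116* the libraries had 38.6%, 52.6% and 96.7% (adjusted p = 1.22e-13, exact test), whereas at *Clbn* they had 58.9%, 44.4% and 58.0% and were not called.

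At the upper end, 26 members had no A read in 4EHP W114A-ADAR. The deepest were *CG31007*, where 2155 of 2156 4EHP-ADAR reads and all 1066 4EHP W114A-ADAR reads were G, and *AttB*, *primo-2*, *CG13202* and *CG17030*. Exons of *primo-1* also cover the *primo-2* site. *AttB*, which encodes an attacin, an antimicrobial peptide, has a near-identical paralogue, *AttA*, so reads at its site may be shared and its value is uncertain. The 2 deepest members of all were *daw*, which encodes an Activin family ligand, with 4639 reads, and *CG15425*, with 4595. In *daw*, 2657 of 2658 4EHP-ADAR reads were G. Its shares in 4EHP W114A-ADAR libraries 1, 2 and 3 were 100%, 99.9% and 100%. *CG9664* had 2609 reads and a pooled 4EHP W114A-ADAR share of 99.8%. The 5 deepest members were thus all near full share in both constructs.

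Few sites lay near the threshold. Just inside it, the lowest 4EHP-ADAR library had 95% at *alpha-Spec*, 95.1% at *ncm* and 95.2% at *Spn*. Just outside, it had 94.9% at *CG2469*, 94.4% at *Nelf-A* and 94.3% at *CG7967*. The site in *Nelf-A*, which encodes another subunit of the pausing complex, had 50%, 55.9% and 73.3% in 4EHP W114A-ADAR libraries 1, 2 and 3, and so would have stood among the lower members. In all, 268 members had at least 99% in their lowest 4EHP-ADAR library and 17 had less than 97%. A further 26 sites on the X met the rest of the rule, and 225 autosomal sites were at 95% or more in each 4EHP-ADAR library with too few reads.

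Most coding members lay at the same base of the codon. Of the 342 members with a gene in the annotation used, 277 lay in coding sequence (81.0%), 30 in a 5′ UTR, 26 in a 3′ UTR, 5 in a non-coding exon and 4 in an intron. The third base of a codon, where many changes leave the amino acid as it is, held 216 of the 277 coding members (78.0%, 95% Wilson interval 72.7% to 82.5%). The first base held 14.4% and the second 7.58%. Sites with a mean 4EHP-ADAR share of 50% to 95% were alike, with 78.9% of 470 at the third base (75% to 82.4%), and 67.8% of 556 sites with a share of 5% to 50% lay there. Of the 41003 coding sites under 5%, 21.8% lay at the third base, 33.4% at the first and 44.8% at the second. The intervals of the members and of the sites under 5% are far apart, and those of the members and of the sites of 50% to 95% overlap. These intervals count every site as independent, which neighbouring sites of the same gene or stretch may not be. They are therefore a description and not a test between classes.

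The share at the third base was close for members at either level in 4EHP W114A-ADAR. The third base held 126 of 161 coding members with a pooled share under 95% (78.26%) and 90 of 116 with at least 95% (77.59%). It held 47 of 57 under 80% (82.46%). Members lay on the plus strand at 181 sites and on the minus strand at 164, and 14 lay in exons of a gene on the opposite strand, where reads of both genes may be mixed.

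**Figure D5:**
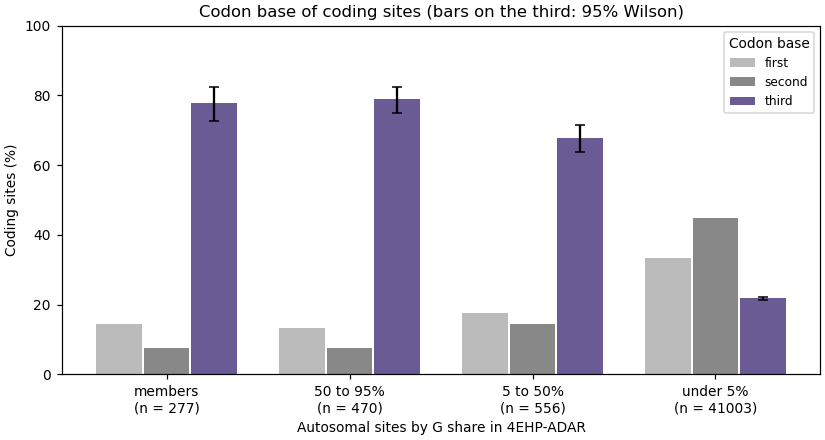
Share of coding sites (%) at the first, the second and the third base of a codon, for members and for other autosomal sites by mean G share in 4EHP-ADAR, with 95% Wilson intervals on the third base. The third base holds 78.0% of the coding members and 21.8% of the sites under 5%.

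Most genes held 1 member (242 of 286), 35 held 2 and 9 held 3 or more. After *CG18170*, the genes with the most members were *CG45186*, *Spn*, which encodes the scaffold protein Spinophilin, and *CG5087*, with 4 each. *CG10383* on 2L held 3, with 61.0%, 65.1% and 61.3% in library 1 and 96.7% to 100% in libraries 2 and 3. On 2R no gene held more than 2. There, the pooled 4EHP W114A-ADAR shares were 81.7% and 82.5% in *Prp8*, a core protein of the spliceosome, and 75.3% and 78.3% in *fra*, the Netrin receptor gene. Sites of 1 gene were thus alike in these cases. In *Spn*, the 4 members split by position. The sites at 2511455 and 2512355 of 3L had 65.7% and 73.9% in library 1, whereas those at 2525249 and 2525372 had 100% in library 1 and 75.9% and 63.5% in library 3. *CG31465* on 3R held 3 members with pooled shares of 75%, 100% and 67.2%. Neighbours within 1 gene could thus differ, as in *CG18170*, *Spn* and *CG31465*.

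Lists of gene groups held few members. Of the genes with an autosomal site of sufficient depth, 3 of 24 aminoacyl-tRNA synthetases, which charge tRNAs, held a member (12.5%, against 4.193% of all genes), as did 2 of 35 proteasome subunits, 1 of 25 subunits of the vacuolar proton pump, 1 of 40 translation initiation factors, 1 of 6 pausing factors, 1 of 8 genes of the ATF4 pathway and 1 of 7 genes of fat body storage and secreted proteins. Counts this small give no rate for a group. No member lay in the 60 mitochondrial ribosomal proteins, the 64 genes of oxidative phosphorylation, the 15 autophagy genes, the 11 lipid genes, the 7 ER chaperones, the 5 serine and one-carbon enzymes or the 3 Adar targets of the nervous system.

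Genes of 1 group differed among themselves. In the alanyl-tRNA synthetase gene (*Aats-ala*, 2L), positions 8378455 and 8378512 had 68.9%, 98.9% and 91.1% and 67.2%, 98.4% and 92.3% in 4EHP W114A-ADAR libraries 1, 2 and 3, like the other late members of the *Pvr* stretch in which they lie. In the glycyl-tRNA synthetase gene (*Aats-gly*, 3L), position 15097142 had 68.9%, 67.6% and 73.9%. In the valyl-tRNA synthetase gene (*Aats-val*, 2R), the pooled shares were 98.1% and 99.4%. Among the other listed genes, *VhaSFD*, a subunit of the proton pump, had 73.5%, 95% and 98.3%, and *Xrp1*, a stress-responsive transcription factor, had 92.7%, 100% and 100%. *Rpn12R* had a pooled share of 99.7%. *Apoltp*, which encodes a lipid transfer apolipoprotein, had pooled shares of 90.4% and 92.1% at its 2 members. *4EHP* itself has a member in its 3′ UTR, at position 24063618 of 3R, where all 199 reads were G in 4EHP-ADAR and the shares were 84.8%, 70.5% and 100% in 4EHP W114A-ADAR libraries 1, 2 and 3 (adjusted p = 0.0125, exact test).

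The RNA level of the genes that hold members was then read from the *4EHP* RNAi experiment, a measure that the rule did not use. The targeted transcript, listed as *eIF4EHP*, had 18.5, 11.5 and 14.6 scaled CPM in *4EHP* RNAi replicates 1, 2 and 3, against 21.7, 21.6 and 12.3 scaled CPM in control replicates 1, 2 and 3. The groups overlapped, with a log2 fold change of −0.28, an SE of 0.36 and an adjusted p of 0.724 (limma, Benjamini-Hochberg). The overlap rests on control replicate 3, since all *4EHP* RNAi values lay below control replicates 1 and 2. Over the alternatives, the change ran from −0.505 to 0.25, the latter with CPM as deposited. No alternative brought the adjusted p below 0.05. The level of the target thus does not check the labels, and a knockdown at the RNA level was not established in these libraries. *4EHP* RNAi and control stand below for the libraries so labelled. Of 284 member genes found in the RNA-seq table, 272 passed a mean of 5 CPM. Limma called 0 of them, as it called 0 of all 8584 transcripts tested (0%), with 23 member genes (8.46%) and 848 transcripts (9.88%) at an unadjusted p below 0.05. EdgeR on the recovered reads also called 0 member genes and 0 of all transcripts, with 28 member genes (10.3%) and 986 transcripts (11.5%) at an unadjusted p below 0.05. DESeq2 on the same reads called 20 (7.35%), against 748 of all transcripts (8.71%). The median log2 fold change of the member genes was 0.07, against 0.15 over all transcripts. With CPM as deposited the median of all transcripts was 0.68 and that of the member genes 0.60, so the scaling sets the level against which single genes are read.

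Some of the genes named above had separate groups in the RNA-seq. *Apoltp* had 465.1, 358.9 and 294.8 scaled CPM in *4EHP* RNAi replicates 1, 2 and 3, against 66.5, 74.7 and 97.4 in control replicates 1, 2 and 3. This is a log2 fold change of 2.21 with an SE of 0.36, and the limma adjusted p was 0.128, between 3.27e-10 and 0.571 over the alternatives. *CG13116* had 1.42, 1.39 and 2.64 scaled CPM in *4EHP* RNAi, against 10.6, 8.6 and 45.7 in control, a log2 fold change of −2.65 with an SE of 0.67 (limma adjusted p = 0.251, between 3.26e-05 and 0.846 over the alternatives). *CG9664* had 47.8, 22.8 and 37.3, against 103.6, 116.5 and 376.3 in control (limma adjusted p = 0.279, between 0.00212 and 0.891 over the alternatives). DESeq2 called all 3 of these genes. The groups did not overlap in these 3 genes, which are among 48 of the 272 without overlap (17.6%), a share near the 18.8% of all transcripts. *Nelf-E* had 33.6, 17.8 and 24.7 scaled CPM in *4EHP* RNAi and 32.2, 30.5 and 15.5 in control, and its groups overlapped. Its limma adjusted p was 0.985, and its log2 fold change was −0.02, between −0.30 and 0.53 over the alternatives.

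Control replicate 3 set several of these values. Without it, limma called 577 transcripts, 16 of them member genes, *Apoltp*, *CG13116* and *CG9664* among them. In that library, 48 member genes (17.6%) were under 3 scaled CPM while above 10 in the other 5 libraries, against 14.7% of all transcripts tested, a rule chosen after the values were seen. *Prosalpha6T*, for instance, had 44.8, 67.7 and 58.3 in *4EHP* RNAi, against 51.1, 54.1 and 1.58 in control. The testis markers *bol*, *can* and *Mst87F* moved with these genes, with a summed level of 596.1 to 939.8 CPM in *4EHP* RNAi, against 14.1 to 703.5 CPM in control, the lowest in control replicate 3. Summed levels of fat body markers were 145917 to 226972 CPM in *4EHP* RNAi, against 242072 to 370181 CPM in control. These markers did not move together. *Fbp1*, *Fbp2* and *Lsp1alpha* were lower in *4EHP* RNAi with no overlap. *Lsp2* was higher with no overlap, at 99254 to 129535 CPM, against 53880 to 77491 CPM in control. *Lsp1beta*, *Lsp1gamma* and *apolpp* overlapped. Summed levels of gut markers were 50.8 to 621.8 CPM in *4EHP* RNAi, against 0.915 to 13.4 CPM in control. Muscle markers summed to 30.4 to 102.7 CPM in *4EHP* RNAi, against 6.43 to 16.1 CPM in control, haemocyte markers to 28.4 to 40.7 CPM, against 8.94 to 23.9 CPM, and salivary gland markers to 111.2 to 578.7 CPM, against 13.8 to 556.5 CPM. The part of tissue content in the RNA levels was not tested, and fewer cells of a type and less RNA per cell cannot be told apart here.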

How the data were processed

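Late larval fat body RNA was sequenced by the authors. For editing, FLEXBAR trimming, HISAT2 alignment and JACUSA site calls were run by the authors. The submitters' processing notes name dm6. The deposited table gives, per site and library, strings of A, C, G and T read counts (C and T are all 0) and the authors' binding score, which was not used. Its positions count from 0, and 1 was added: with that shift, codon-base shares of sites at most 5% differed between strands by up to 1.217 points, against 23.84 as listed. The annotation was BDGP6.54. No genome sequence was used, so the bases around the sites are not given here.

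For RNA-seq, the authors deposited CPM, reads per gene scaled to a common total. All values up to 1000 reads came out as whole reads within 0.0663 reads (100% in each library), with 59919651 to 92604208 reads in *4EHP* RNAi libraries and 71705185 to 85334423 in control libraries. CPM was divided by median-of-ratios factors, and transcripts averaging 5 CPM or more went into limma 3.58.1 under R 4.3.3, as log2(CPM + 1), with a trended eBayes step. EdgeR 4.0.16 and DESeq2 1.42.0 were run on the recovered reads. The RNA-seq table of *NELF-E* and *lacZ* RNAi was not used here.

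The editing libraries were compared with a Fisher-Freeman-Halton exact test on the A and G reads. The p-values of this test and the Wilson intervals (95%) cover counting error only: PCR duplicates of a molecule were not told apart. For RNA-seq, the paper describes biological replicates, each of RNA pooled from several male larvae. The RNA-seq p-values measure the spread between these pools. Each fit was tested on simulated data with 200 changed items. The exact test recovered 200 with 0 false calls among 69874 sites, and limma 200 with 6 false calls among 8584 transcripts. These counts hold for the simulated data only. How many true changes either test would find or miss in the real libraries was not tested. Alternatives were other minimums of reads and G share, other gaps, a chi-square test, each library left out, and for RNA-seq other tools, pseudocounts, filters, CPM as deposited and a replicate block.

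The members, lists and tests were chosen with earlier results of these data known. Sites named are, by rule, the genes with most members per arm, the lowest, highest and deepest members, runs, those with the smallest p among libraries, members of *Nelf-E*, *Nelf-A* and the gene lists, and those beside the threshold. Others were named for their place in a stretch, after their values were seen. Some members that the rule names are not reported here.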

Additional observations from a re-analysis of the deposited data

How the results depend on the processing

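The number of members (345) was 350 to 380 with 1 library left out and 175 with at least 50 reads. The median pooled 4EHP W114A-ADAR share (91.67%) ranged over 89.83% to 96.83% when single libraries were dropped, reaching the top without 4EHP W114A-ADAR library 1 and the lowest without 4EHP-ADAR library 1. The number of members called among the 4EHP W114A-ADAR libraries (105) was 5 to 113 with 1 library left out, the lowest without 4EHP W114A-ADAR library 1, with only 2 libraries then compared. Members in runs (12) numbered 33 with at least 10 reads, 0 with at least 50 reads, 0 with a G share of at least 99%, 3 with a gap of at most 100 bases, 76 with at most 10000 bases, and 12 to 20 with 1 library left out. The median difference between neighbours within 1000 bases (1.74 points) was 0.948 with at least 50 reads, 1.32 within 100 bases, 2.46 within 10000 bases, 6.58 for the 2 pairs in different genes, and 1.71 to 2.99 with 1 library left out. The third codon base held 12.27% of coding members with positions as listed, and 77.58% to 79.8% with 1 library left out.

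Limma called 0 transcripts in *4EHP* RNAi against control. This became 93 with CPM as deposited, 5 with a pseudocount of 5, 3 with no filter, 748 with DESeq2, and 0 to 577 with 1 library left out. Among genes holding members, it became 2 with CPM as deposited, 20 with DESeq2 and 0 to 16 with 1 library left out, the highest in both cases without control replicate 3. With the replicate block, 0 transcripts and 0 genes holding members were called. Same-numbered RNA-seq samples had correlations of 0.119, 0.0112 and −0.167 in their deviations, and 1 of 6 samples correlated best with its own number. A pairing by number was thus not seen, but so few samples per group cannot exclude one. No paired analysis was possible for the editing libraries because their columns are not matched to labelled replicates. The base before each site, and whether A to G changes the amino acid, were not run because no genome sequence was used.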
